A study of Mus musculus with 2 samples.

Results

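The cells described here are those tagged G4 in a Drop-seq library of mouse medulloblastoma taken at postnatal days 24 to 30 (P24-30). They are all the cells whose column names in the deposited table begin with the tag G4: 208 of the 4991 cells of that library, and of 10991 cell barcodes in the series with the 6000 of a second library from postnatal day 12. The tumours came from hGFAPcre;Ptchc/c mice, in which Cre recombinase under a human GFAP promoter acts on a conditional Ptch allele (c/c). Both ages carry this genotype and no tumour-free control was analysed here. Cre from this promoter acts in neural stem and progenitor cells of several brain regions, so recombination is not limited to the granule lineage. The number of animals behind the library, and whether they were pooled, is stated nowhere in the labels, so each comparison below is within 1 library, with no replicate and no test across samples.

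The names of the columns carry 16 tags, G1 to G16, which the labels leave unexplained, and the tags may have been made from these same expression values. Differences between G4 and the other tags are therefore descriptions. Columns carry no barcode sequence, so barcodes shared between the libraries could not be counted. UMIs (unique molecular identifiers, one per captured RNA molecule) were recovered from the deposited values. Of the G4 cells, 194 were kept after 13 with under 500 UMIs and 1 with over 20% mitochondrial UMIs were left out, and of the 4783 cells of the other tags 4602 were kept. Kept G4 cells had a median of 1761 UMIs against 2224 in the other tags, and G4 in all held 371135 UMIs. Doublets were not called or removed.

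Granule neuron progenitors of the cerebellum divide in response to Sonic hedgehog (SHH), which relieves the block that the receptor Ptch1 places on Smo and so activates the Gli transcription factors. Loss of Ptch leaves this pathway on, and the progenitors can give rise to SHH medulloblastoma. As progenitors leave the cell cycle, Atoh1 gives way to Neurod1, Nhlh1 and Cntn2, and then to genes of the neuronal cytoskeleton and the synapse. Replication-dependent histone genes, the H2A genes among them, are transcribed in S phase, and most of their mRNAs end in a stem-loop with no poly(A) tail.

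H2A histone genes took the 5 highest places in the comparison of G4 with the tags nearest to it. The sequences upstream of Hist1h2ac and Hist1h2ag, which were among the 5, are printed for that reason. Hist3h2a, printed beside them, was not among the 5, with a ratio of 1.63 over those tags. Hist1h2ac and Hist3h2a shared no 50-base stretch of the last 500 bases of their longest transcripts with another gene. Of such stretches of Hist1h2ag, 78.9% occur in other genes. The rest of each gene was not checked, so the assignment of UMIs to Hist1h2ac is not settled. Over the kept cells its UMIs had a Pearson r of 0.946 with those of Hist1h2ag, against −0.035 for Hist3h2a with Hist1h2ag. Hist3h2a was also the H2A gene with the highest ratio over all other tags among those with a UMI in G4. The lines give the 250 bases before the RefSeq start on GRCm38.p6, 5′ to 3′ on the gene's strand, with CCAAT and TATAAA on either strand in capitals (ATTGG and TTTATA are their reverse complements).

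Hist1h2ac, chr13:23683960-23684209, minus strand: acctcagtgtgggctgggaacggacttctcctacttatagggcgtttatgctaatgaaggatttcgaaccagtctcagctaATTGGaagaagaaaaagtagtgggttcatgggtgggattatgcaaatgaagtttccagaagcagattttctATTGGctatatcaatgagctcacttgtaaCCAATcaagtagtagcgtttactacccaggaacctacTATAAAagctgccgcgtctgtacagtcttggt

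Hist1h2ag, chr13:22042950-22043199, minus strand: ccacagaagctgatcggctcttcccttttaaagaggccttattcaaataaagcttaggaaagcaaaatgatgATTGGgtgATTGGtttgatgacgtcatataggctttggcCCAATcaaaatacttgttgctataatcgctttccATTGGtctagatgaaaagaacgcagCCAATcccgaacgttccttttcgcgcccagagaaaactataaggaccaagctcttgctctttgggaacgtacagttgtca

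Hist3h2a, chr11:58954435-58954684, plus strand: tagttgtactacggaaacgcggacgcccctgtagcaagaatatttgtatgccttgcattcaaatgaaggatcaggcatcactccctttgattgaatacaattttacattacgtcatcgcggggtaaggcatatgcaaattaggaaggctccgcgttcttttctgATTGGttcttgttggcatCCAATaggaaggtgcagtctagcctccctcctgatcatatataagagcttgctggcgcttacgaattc

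Promoter windows of 300 bases (250 before and 50 after the start) were matched for 16 of the 18 H2A genes. CCAAT on either strand was in 16 of the 16, against 37.4% of all 32851 windows of that length. TATAAA was in 10 of the 16, against 13.6% of all windows. Matches of the 2 motifs may share end bases. A match is a description of the sequence and not of a bound factor.

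A working name for these cells, a mix of progenitors and neurons, was checked first against its markers. The deposited labels do not give this name. Cntn2, a cell adhesion protein of newly postmitotic granule neurons, stood at 272 CPM (counts per 1000000 UMIs, summed over the kept G4 cells) against 183 in the other tags together, a ratio of 1.44. Tubb3, the neuronal beta-tubulin, stood at 838 against 553 CPM, a ratio of 1.47. Nhlh1, a bHLH factor of early neurons, stood at 251 against 134 CPM, a ratio of 1.82. Ratios are relative to that of the median gene throughout, and their 95% intervals, exact and for counting error only, were 1.17 to 1.76, 1.31 to 1.65 and 1.46 to 2.24.

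All 3 markers were thus detected and above the pooled other tags, but G4 was at the top for none of them. Among the 14 tags with at least 50 kept cells, G4 ranked 7 in Cntn2, below G15 at 309 CPM and above G7 at 185 CPM, and 5 in Tubb3 and Nhlh1. The highest tag for all of them was G12, with 697 CPM of Cntn2, 1582 of Tubb3 and 453 of Nhlh1. When the other tags were given equal weight, the log2 ratio of Cntn2 turned to −0.08 and that of Neurod1 to −0.16, while Tubb3 and Nhlh1 stayed above 0 at 0.24 and 0.46.

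**Figure D1:**
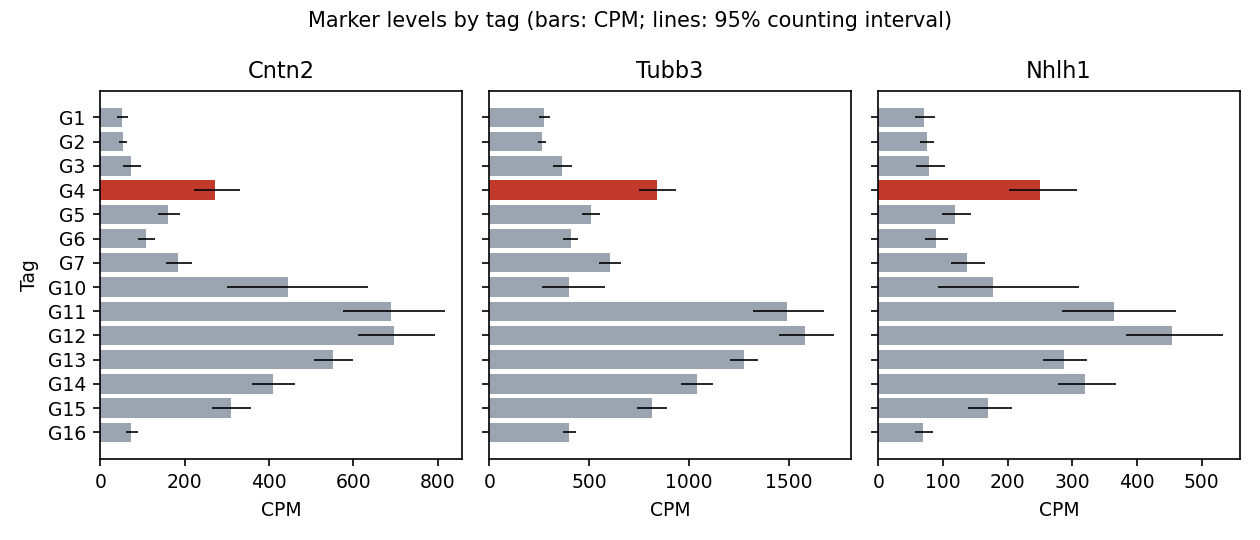
CPM of Cntn2, Tubb3 and Nhlh1 in each of the 14 tags with at least 50 kept cells, as bars from 0, with 95% exact counting intervals as lines and G4 in red. G4 lies between the low tags G1, G2, G3 and G16 and the high tags G11 and G12 for each gene.

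Not every G4 cell carried these markers. Of 194 cells, 52 had a Cntn2 UMI, 114 a Tubb3 UMI and 62 an Nhlh1 UMI, and 62 cells had no UMI of any of the 3. The highest cell held 8 UMIs of Cntn2, 11 of Tubb3 and 4 of Nhlh1, and the median cell held 0, 1 and 0. Free RNA was gauged in 57 cells of the library with at least 3 microglia markers (1 of them tagged G4), which should lack these genes. With every cell thinned to 500 UMIs, Nhlh1 was seen in 13.4% of G4 cells, 7.48% of the other tags' cells and 0 of the 57, which allows a share of up to 5.26%. Tubb3 was seen in 25.8%, 23.7% and 5.26%, and Cntn2 in 10.8%, 10.2% and 3.51% of the same sets. The unthinned shares in G4 were 32% for Nhlh1, 58.8% for Tubb3 and 26.8% for Cntn2. In the other tags they were 23.9%, 55.6% and 25.4%, in the same order. In the microglia-marker cells they were 7.02%, 21.1% and 3.51%, so Nhlh1 was seen there before thinning. The median depths were 1761 UMIs in G4, 2224 in the other tags and 2265 in the microglia-marker cells.

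Over all genes with at least 50 UMIs in the library, 11085 in number, 13% were at least 1.5-fold higher in G4 than in the other tags and 18.9% at least 1.5-fold lower. With the further condition that the counting interval lay clear of 1, these shares were 4.27% (473 genes) and 5.13% (569 genes). The median gene had 10 UMIs in G4, so single low genes carry wide intervals. The same shares against the 3 tags most like G4 were 14.6% and 15.9%, and 3.42% and 2.42% with the interval clear of 1. Those tags were G7, G5 and G15, with Pearson r of 0.95, 0.946 and 0.944 across genes on log2 of CPM plus 10 (a description over genes, which are not replicates). Leaving the histone genes out kept the same 3 tags nearest.

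The genes of division were low. Of 55 tested genes of the G2 and M phase list, 54 were at least 1.5-fold lower in G4, against 18.9% of all genes, and none higher. The 54 had intervals clear of 1. The list's median log2 ratio was −2.58, against 0 for all genes. The summed list stood at 2996 CPM in G4 and 12256 in the other tags, but at 3261 in the 3 like tags, where the median log2 ratio was −0.18. G4 ranked 8 of 14 tags by this sum, below G5 at 4742 CPM and above G7 at 2312, and no other tag's interval overlapped its own. Ctcf, a chromatin insulator protein that is not a mitosis gene by function, was the member that did not pass, at 251 CPM in both sets.

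The 12 lowest genes over the whole table were all of the division cycle. Hmmr, a spindle protein, had 1 UMI in all of G4, 2.69 CPM against 184. Cdk1, the mitotic kinase, had 2 UMIs, 5.39 CPM against 155. Ccnb1, its cyclin partner, likewise had 2 UMIs. The others were Kif11, Nusap1, Tpx2 and Ckap2 of the spindle, Cenpa and Spc25 of the centromere and kinetochore, and Ube2c, Cks2 and Fbxo5 of the proteolysis and kinase machinery. Their ratios over all other tags lay between 0.0142 (Hmmr) and 0.116 (Cks2). Against the 3 like tags the log2 ratios were 0 for Spc25, −0.13 for Ube2c, −0.37 for Nusap1, −0.47 for Cks2 and −0.58 for Tpx2. Those of Ccnb1, Fbxo5, Cdk1, Cenpa and Ckap2 were −1.12, −1.44, −1.94, −2.12 and −2.13. Hmmr and Kif11 moved by less than the half-width of their intervals. Mki67, the common proliferation marker, stood at 80.8 CPM against 494, a ratio of 0.159 (0.107 to 0.227), and was seen in 19 of 194 cells. Its log2 ratio against the like tags was −0.34.

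S phase genes were lower as well, and here the like tags did not close the gap. Of 44 tested members 32 were at least 1.5-fold lower, against 18.9% of all genes, and none higher. Of the 32, 27 had intervals clear of 1. The median log2 ratio was −0.77, with −0.56 against the like tags and −0.39 with equal weights for the other tags. The sum was 2972 CPM in G4, 5337 in the other tags and 4518 in the like tags. Nasp, a histone chaperone, stood at 426 CPM against 951 in the like tags, a ratio of 0.437 (0.369 to 0.514). Among genes not on the S phase list, Smc2, a condensin subunit, stood at 164 CPM against 431, a ratio of 0.372 (0.282 to 0.482). Ccdc18, also not on it, had 5 UMIs, a ratio of 0.216 (0.069 to 0.516) over the like tags. Mtf1, a metal-responsive factor and likewise not a member, had none against 20.2 CPM. Ung, a member that removes uracil from DNA, stood at 51.2 CPM against 48.8 in all other tags. Its ratio was 1.02, with an interval (0.608 to 1.6) that held 1.

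Of the progenitor genes, Atoh1, the factor that specifies granule progenitors, was low. It had 15 UMIs in 15 G4 cells, 40.4 CPM against 82.5 in the other tags and 111 in the like tags, with ratios of 0.476 (0.265 to 0.789) and 0.354 (0.195 to 0.596). This was the lowest of the 14 tags, although G12, next at 42.6 CPM, lay within the counting interval. Barhl1, a homeobox factor of the same lineage, was by contrast at its highest of the 14 tags in G4, at 555 CPM against 302, a ratio of 1.78 (1.54 to 2.05). Its level in G12, 496 CPM, lay within the counting interval of G4 as well. The lineage list as a whole had 2 of 12 tested members at least 1.5-fold higher (Barhl1 and Reln, a secreted guidance protein) and 1 lower (Atoh1). Among all genes these shares were 13% and 18.9%.

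The SHH pathway list lay near the median gene, with 1 of 16 tested members at least 1.5-fold higher, 1 lower and a median log2 ratio of −0.05. Among all genes 13% were higher and 18.9% lower. Ptch1, the gene targeted in the model, had 5 UMIs in G4, 13.5 CPM against 12.2 in the other tags, a ratio of 1.08 (0.344 to 2.57). UMIs from the 3′ end do not show whether the targeted part of the gene was deleted, so these counts are no check of the genotype. Gli1, the transcriptional effector and target of the pathway, stood at 70.1 CPM against 97.4, with an interval of its ratio (0.454 to 1.03) that held 1. Boc, a hedgehog co-receptor, was the member past 1.5-fold higher, at 1.53 (0.969 to 2.3). Gas1, another co-receptor, had 2 UMIs, 5.39 CPM against 45.3, a ratio of 0.116 (0.014 to 0.42), and was the lowest of the 14 tags. The cyclins split, with Ccnd1 at 388 against 496 CPM (0.76, interval 0.64 to 0.897) and Ccnd2 at 1299 against 1066 (1.18, interval 1.08 to 1.3). Against the like tags Ccnd2 did not differ beyond its interval, 0.896 to 1.09.

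Neuronal genes were higher by small ratios. Of 27 members of the early granule neuron list 5 were at least 1.5-fold higher, against 13% of all genes, and none lower, against 18.9%. Of the 27, 24 lay above the median gene, and the median log2 ratio was 0.41. The 5 had intervals clear of 1: Gng3, a G protein subunit, at 194 against 89.9 CPM, Dcx, the microtubule protein doublecortin, at 199 against 113, Stmn2 and Stmn4, stathmins that bind tubulin, and Nrn1, neuritin. Stmn2 was the most abundant of them, at 1773 against 1049 CPM, a ratio of 1.64 (1.52 to 1.78). The list summed to 11710 CPM in G4, 8800 in the other tags and 9182 in the like tags, which placed G4 at rank 5 of 14, below G14 at 13185 CPM and above G15 at 10940, with no overlap of intervals. With equal weights for the other tags the median log2 ratio was 0.15.

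The early differentiation factors were less far from the rest. Of 19 tested, 3 were at least 1.5-fold higher (Nhlh1, Myt1 and Scrt2, the last with an interval that held 1) and 1 lower (Sox11, whose interval held 1). Of all genes, 13% were higher and 18.9% lower by this measure. The list's median log2 ratio was 0.34, and 0.11 with equal weights for the other tags. Neurod1, a bHLH driver of granule neuron differentiation, stood at 1113 against 886 CPM, a ratio of 1.22 (1.1 to 1.35). Among mature genes, Snap25 of the synaptic vesicle fusion machinery stood at 205 against 128 CPM, a ratio of 1.55, while Gabra6, the GABA receptor subunit of mature granule neurons, had no UMI in any G4 cell. A count of 0 in 194 cells allows up to 1.55% of cells with a UMI. Of 30 genes on the mature list 18 were abundant enough to be tested, and 9 were at 0 in G4. Of the 18, 4 were at least 1.5-fold higher and 1 lower, against 13% and 18.9% of all genes.

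**Figure D2:**
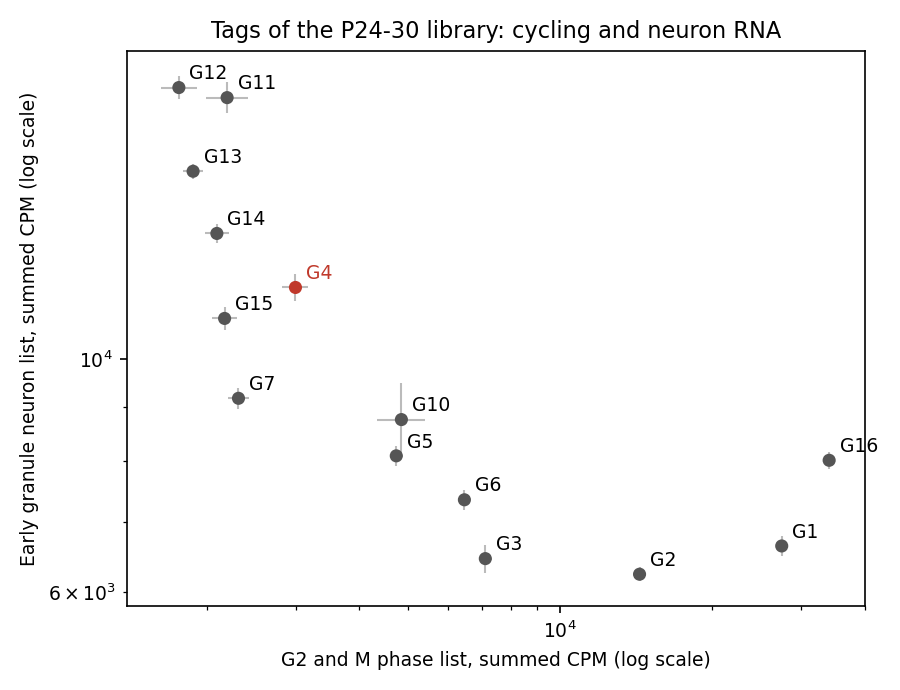
Summed CPM of the G2 and M phase list (x, log scale) against the early granule neuron list (y, log scale) for the 14 tags with at least 50 kept cells, with 95% counting intervals. G4, in red, is at 2996 and 11710 CPM, between the neuron-rich tags G11 to G14 and the cycling tags G1, G2 and G16.

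The highest genes of the whole table were of mixed function. Miat, a long non-coding RNA of neurons, was the most abundant, at 692 CPM against 318, a ratio of 2.12 (1.86 to 2.4), with a UMI in 112 of 194 cells. Mxd4, a MYC antagonist that pairs with MAX, stood at 154 against 64.4 CPM, a ratio of 2.32 (1.74 to 3.03). Gamt, an enzyme of creatine synthesis, stood at 245 against 110 CPM and Chrna3, a nicotinic receptor subunit, at 124 against 51.6. Actl6b, a subunit of the neuronal chromatin remodelling complex, and Celf3, a neuronal RNA-binding protein, had ratios of 2.93 and 3.06. Fgfr4, a fibroblast growth factor receptor, had 15 UMIs in 15 cells, 40.4 CPM against 11.2. The remaining genes were Inpp1, Cyp11a1, Smim18, Slc22a15 and Dusp5, each with 10 to 21 UMIs. Against the 3 like tags the log2 ratios of Miat, Gamt and Chrna3 fell to 0.70, 0.50 and 0.68. That of Miat was 0.67 with equal weights for the other tags. The other genes of this paragraph moved by less than the half-width of their intervals in both settings.

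**Figure D3:**
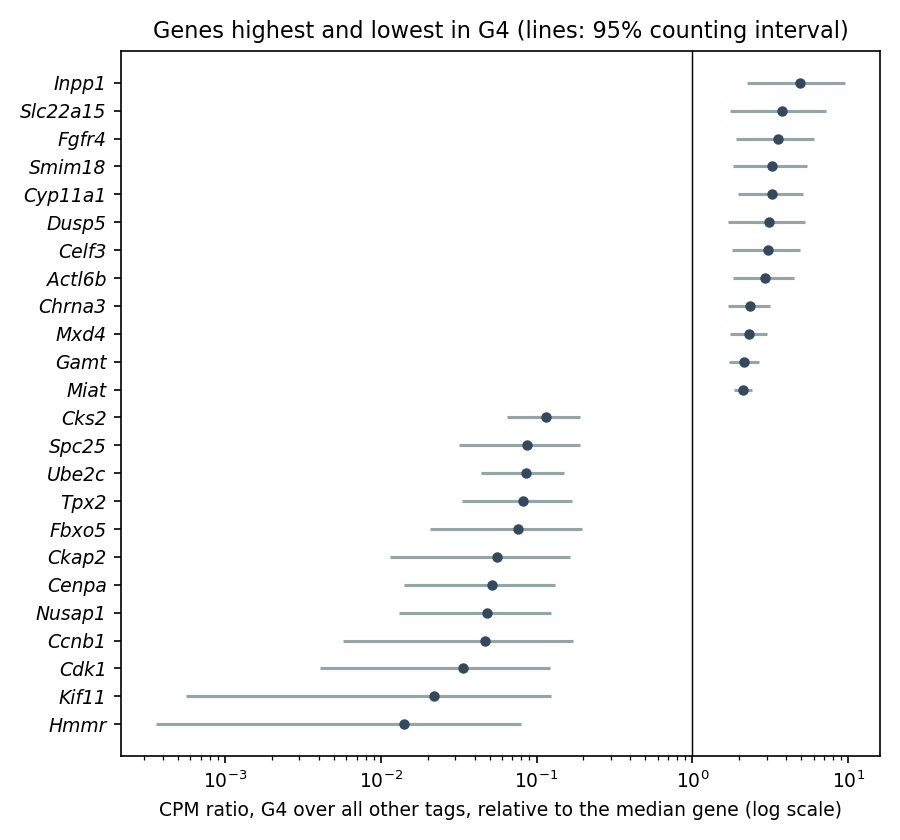
CPM ratio of G4 over all other tags, relative to the median gene (x, log scale), for the 12 highest and 12 lowest genes by the interval bound nearest to 1, with 95% counting intervals. The high genes lie between 2.12 (Miat) and 4.88 (Inpp1) and the low genes, all of the division cycle, between 0.0142 (Hmmr) and 0.116 (Cks2).

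Genes of cell-cycle exit lay near the median gene, with 2 of 14 at least 1.5-fold higher, 4 lower and a median log2 ratio of −0.08. The shares of all genes, for this and the other lists of this paragraph, were 13% higher and 18.9% lower. Cdkn1b, the CDK inhibitor p27, stood at 267 against 248 CPM, and Cdkn2d, the inhibitor p19, at 16.2 against 57.4, a ratio of 0.273 (0.1 to 0.598) that came to 0.857 (0.298 to 2.03) against the like tags. Migration and axon guidance genes had 3 of 24 higher and 3 lower, with Dcc, a netrin receptor, at 62.0 against 39.0 CPM and an interval of its ratio that held 1. Among MYCN and nucleolar targets, 1 of 14 was lower and none higher. That was Nop58, a core protein of box C/D ribonucleoproteins, at 560 against 816 CPM, while Mycn itself stood at 189 against 165 with an interval that held 1. The p53 list had 1 of 13 higher and 4 lower, glycolysis 2 of 17 higher and 4 lower, and the immediate early genes of dissociation 0 of 10 higher and 2 lower.

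Hey1, a Hes-related Notch target, was at its highest of the 14 tags in G4, at 164 against 84.6 CPM, a ratio of 1.89 (1.43 to 2.44) that came to 1.27 (0.945 to 1.67) against the like tags. Of the 17 Notch genes 9 could be tested, and 7 were at 0 in G4. Stem and glial progenitor factors had 6 of 15 tested at least 1.5-fold lower and 1 higher, against 18.9% and 13% of all genes. The intervals of 3 of the 6 lay clear of 1, and Ptprz1, another of them, had 1 UMI. Olig1, a bHLH factor of the oligodendrocyte lineage, stood at 24.2 against 77 CPM and was the lowest of the 14 tags, and Msi2, an RNA-binding protein of progenitors, was the higher one at 135 against 85.2.

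Single UMIs of other cell types' markers were about as common in G4 as elsewhere. A UMI of the astrocyte and Bergmann glia list was in 50.5% of G4 cells and 50.6% of the other tags' cells, one of the oligodendrocyte list in 42.3% and 47%, and one of the choroid plexus list in 38.7% and 39%. Their part in the results was not tested. The microglia list summed to 17 UMIs in all G4 cells, 45.8 CPM against 335 in the other tags, with 7 of 14 members at 0, Csf1r, Cx3cr1 and P2ry12 among them. The astrocyte and Bergmann glia list summed to 509 against 1038 CPM, with 4 of 12 members at 0, and the oligodendrocyte list to 393 against 539, with Mag and Mog at 0. Of the 194 cells, 1 had at least 3 microglia markers, 2 had at least 3 astrocyte markers and 6 had at least 3 oligodendrocyte markers, against 56, 168 and 165 of the 4602 cells of the other tags. Vascular, erythroid, GABA neuron and unipolar brush cell lists held 20, 10, 7 and 11 UMIs in all of G4. The choroid plexus list summed to 4039 against 1828 CPM, but 1391 of its 1499 UMIs in G4 lay in 1 cell. That cell alone held 1298 of the 1360 UMIs of Ttr, transthyretin, and without it the list's median log2 ratio was −0.78 in place of 0.19.

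H2A histone RNA was higher in G4 than in the tags nearest to it. The 18 H2A genes summed to 6337 CPM in G4 (6084 to 6599) against 2007 in G7, G5 and G15 together, a ratio of 3.08 (2.93 to 3.24). Of the 18 members 17 were at least 1.5-fold higher than in the like tags, against a background of 14.6% of all genes, counting 2 whose intervals held 1, and Hist1h2aa had no UMI in G4. The list was chosen after its genes had been seen at the top of this comparison, so its direction is no independent result. Against all other tags the ratio was the reverse, 0.407 (0.391 to 0.424), with G1 and G2 at 35523 and 42842 CPM.

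The order of the tags by H2A was G2, G1, G4, G11, G3, G16 and G5, with G11 at 5193 CPM (4875 to 5525) and G3 at 4650 (4484 to 4820). G4 thus lay above each of these without overlap of intervals, and far below G1 and G2. The ratio was 3.8 over G7 alone, 1.91 over G5 and 10.6 over G15. Every kept G4 cell had H2A UMIs, at least 0.189% of its total, with a median of 0.6% and a highest value of 2.22%. In the like tags 246 of 995 cells had none, and 54.5% lay below the lowest G4 cell. These tags differed, with none in 9 of 377 cells of G5, 75 of 334 of G7 and 162 of 284 of G15. The share below the lowest G4 cell was 22% in G5, 61.4% in G7 and 89.4% in G15. It was 9.5% in G3, 1.61% in G11 and 0 in G1 and G2.

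**Figure D4:**
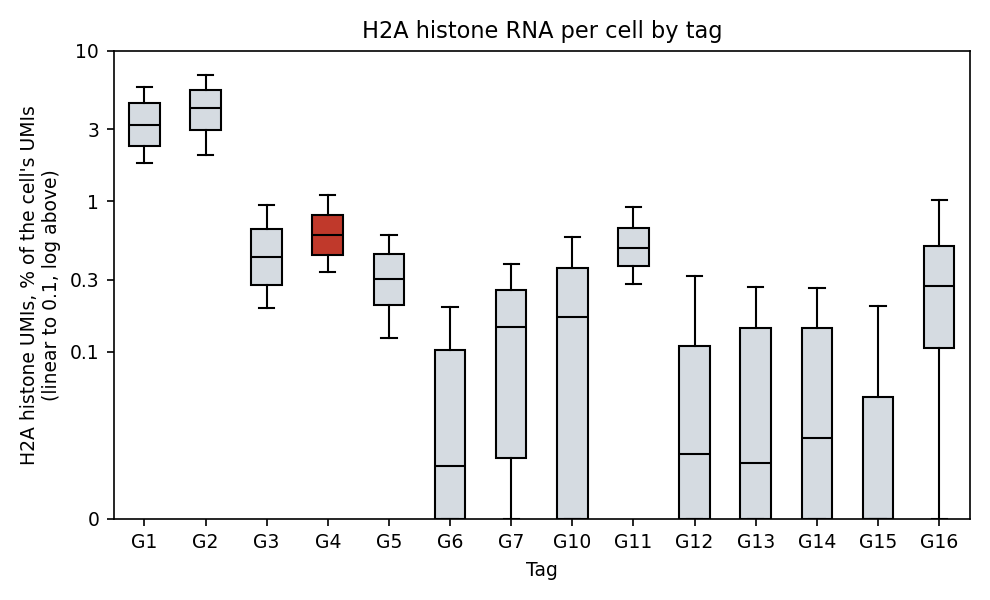
Share of each cell's UMIs from the 18 H2A genes (y, linear to 0.1% and log above) in the 14 tags with at least 50 kept cells, with the median as a line, the box from the 25th to the 75th percentile and whiskers at the 10th and 90th. The median is 0.6% in G4, in red, against 0.147% in G7 and 0.306% in G5, and over 3% in G1 and G2.

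By gene, Hist1h2ac stood at 560 CPM in G4 against 143 in the like tags, a ratio of 3.83 (3.2 to 4.57), with UMIs in 149 of 194 cells. Like Hist3h2a, it has no 50-base end stretch of its longest transcript in common with another gene, while its other stretches were not checked. Hist1h2ag stood at 633 against 176 CPM, a ratio of 3.52 (2.98 to 4.14), and Hist1h2ai, Hist1h2ah and Hist1h2ab had ratios of 3.9, 3.81 and 3.77. These 4 are uncertain as single genes, since 78.9%, 90.1%, 90.7% and 58% of their end stretches, in that order, are found in other genes. Hist1h2ao and Hist1h2ap were the most abundant, at 967 and 970.0 CPM, and are uncertain in the same way, since 93.5% and 93.1% of their end stretches are found in other genes. Hist3h2a stood at 140 CPM against 70.6 in all other tags and 83.7 in the like tags, with ratios of 1.93 (1.43 to 2.55) and 1.63 (1.18 to 2.23), so it was higher in both comparisons.

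Hist1h2ac lies at chr13:23681467-23683948 and Hist1h2ag at chr13:22042460-22042944, both protein-coding on the minus strand of GRCm38, and Hist3h2a at chr11:58954685-58956830 on the plus strand. Other replication-dependent histones had ratios of G4 over the like tags nearer to 1, with H4 in the other direction. They held fewer UMIs in G4, at 211 for H2B, 39 for H3, 44 for H1 and 40 for H4, against 2352 for H2A. The ratios of summed UMIs were 1.33 (1.14 to 1.54) for 18 H2B genes, 1.43 (0.979 to 2.03) for 11 H3 genes, 1.38 (0.972 to 1.93) for H1 and 0.684 (0.48 to 0.95) for H4. The differences between these ratios were not tested.

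Within G4 the H2A share of a cell did not follow its cell cycle or neuron RNA. Across the 194 cells its Pearson r was −0.05 with the S phase share, 0.11 with the G2 and M share and 0.01 with the neuron share, all shares of the same cells' UMIs. It was −0.31 with log10 of the cell's UMIs, so cells of fewer UMIs had higher H2A shares. G4 cells were also shallower than those of G7 and G5, at median depths of 1761, 2192.5 and 2273 UMIs. Restricted to cells with at least 1000 UMIs the H2A ratio over the like tags was 3.08, as large as with all kept cells.

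G4 cells fell into 2 sub-clusters of 102 and 92 cells. Since the clusters were made from these genes, what separates them is a description. Sub-cluster 1 was led by Hells, a chromatin remodeller, Zfp36l1, an mRNA-decay protein, Tyms, thymidylate synthase, Sox9, a progenitor factor, and Cdca7, a cell-cycle gene. Sub-cluster 2 was led by Neurod1, Cntn2, Clmp, an adhesion protein, Stmn4 and Chgb, a secretory granule protein. Hells had 33 UMIs in sub-cluster 1 and 0 in sub-cluster 2, at least 11-fold higher against a floor of 3 UMIs over the sub-cluster. Neurod1 stood at 273 CPM in sub-cluster 1 and 2034 in sub-cluster 2, with UMIs in 29 of 102 and 70 of 92 cells.

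The neuron and S phase lists moved in opposite directions between the 2. The early granule neuron list summed to 6676 CPM (6317 to 7049) in sub-cluster 1 and 17232 (16626 to 17855) in sub-cluster 2, close to the level of G11 at 17768. The S phase list summed to 3971 and 1876 CPM, and the G2 and M phase list to 3394 and 2559. Ccnd1 stood at 510 and 254 CPM, Gli1 at 20 and 6 UMIs, and Atoh1 at 10 and 5 UMIs, with overlapping intervals for Gli1 and Atoh1. Other genes of dividing progenitors were not lower in sub-cluster 2, with Mki67 at 61.8 and 102 CPM, Ccnd2 at 1216 and 1390 and Mycn at 185 and 192. Barhl1, a factor of the granule lineage and not of division, stood at 494 and 621 CPM. For each of these genes the intervals overlapped. Against the other tags without histone genes, sub-cluster 1 was most like G5, G7 and G6 and sub-cluster 2 most like G15, G7 and G13.

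H2A RNA did not separate them. It summed to 6583 CPM (6227 to 6954) in sub-cluster 1 and 6068 (5710 to 6442) in sub-cluster 2, with overlapping intervals and medians per cell of 0.617% and 0.589%. Median depths were 1812.5 and 1734 UMIs. Clustering without histone genes again gave 2 sub-clusters, with an adjusted Rand index of 0.68 to the first division, and a resolution of 1 gave 3.

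**Figure D5:**
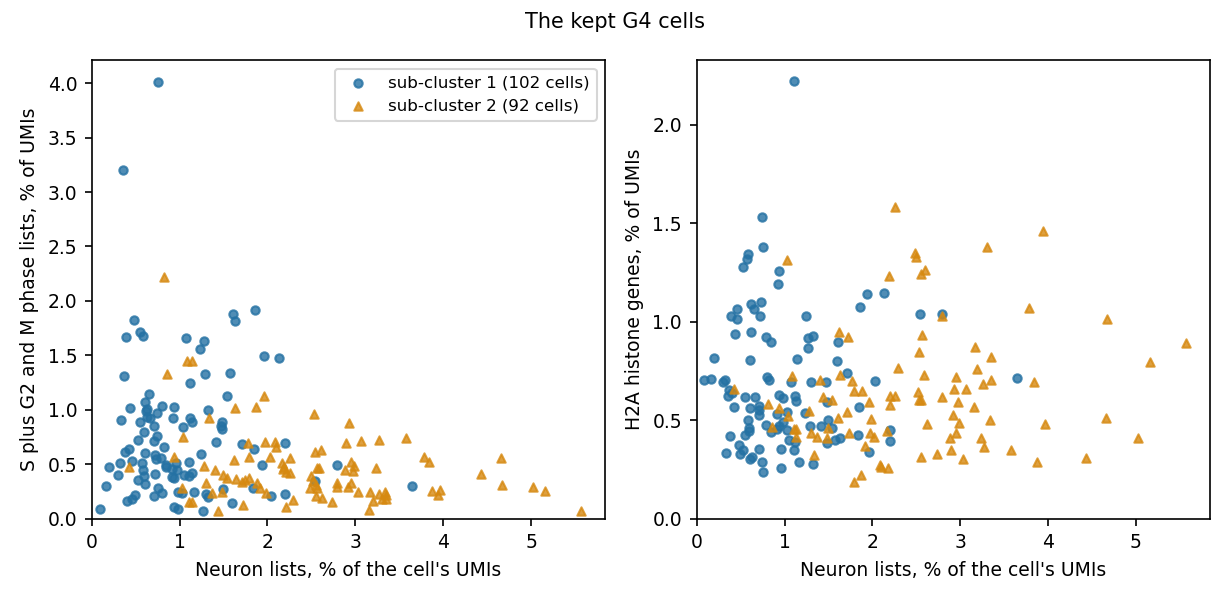
Each point is 1 of the 194 kept G4 cells, with the neuron lists on x (early granule neuron plus early differentiation factors, % of UMIs) and the S plus G2 and M phase lists (left) or the H2A genes (right) on y, and colour and shape by sub-cluster. Sub-cluster 2 (92 cells) lies at higher neuron shares, with a median of 2.49% against 0.912%, while both span like H2A shares.

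A mix of progenitors and neurons in 1 tag could hold separate cells of either kind or cells with both programmes. Cells were thinned to 500 UMIs and called high in a list when they held more than the median of the other tags' cells, which was 6 UMIs for the S plus G2 and M lists and 6 for the neuron lists. Of 194 G4 cells 2 were high in both (1.03%, 0.125% to 3.67%), 17 in cycling genes only, 100 in neuron genes only and 75 in neither. In the other tags 13.3% of cells were high in both. The share in G4 came to 5.15% with another random draw of the thinning, 10 cells in place of 2, so nothing was read from it. Both lists lie near the cut in many cells, with 16.5% and 24.7% of G4 cells within 1 UMI of it.

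Pairs of single genes need no cut on a sum. Of the 15 G4 cells with an Atoh1 UMI, 4 also had Neurod1, 26.7%, against 53.1% of the cells with no Atoh1 UMI. For Cntn2 the shares were 26.7% and 26.8%, without such a gap. In the other tags the shares with Neurod1 were 51.9% with Atoh1 and 56.9% without it, and those with Cntn2 18.3% and 26.8%. Of the 24 G4 cells with Gli1, 7 had Neurod1 (29.2%, against 54.1% without Gli1) and 3 had Cntn2 (12.5% against 28.8%). In the other tags these shares were 48.4% against 57.8% for Neurod1 and 11.8% against 28.5% for Cntn2. The differences between the shares were not tested. The r between cycling and neuron UMIs per 500 was −0.25 over G4 cells and −0.27 over the other tags' cells.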

How the data were processed

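Drop-seq libraries (3′ ends, Illumina HiSeq) of tumours at postnatal days 24 to 30 and 12 were deposited, 1 per age. CASAVA and mm10 are named per the submitters' processing notes, while no source used here names the aligner, the counter or the annotation. The P24-30 values as deposited by the authors are natural log values, ln of 1 plus a cell's scaled share. UMIs were recovered as expm1 of the value over the cell's smallest nonzero expm1, and 100% of 6195642 values were whole within 0.001. The P12 file as deposited by the authors holds counts and entered only the number of barcodes.

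UMIs were summed over kept cells (at least 500 UMIs, at most 20% mitochondrial) and scaled to CPM. Ratios for genes with at least 50 UMIs were divided by the median gene's ratio, with exact conditional 95% intervals. A gene at 0 in G4 was set to a floor of 3 UMIs. Intervals and floors cover counting error only. Cells of 1 library are not replicates, so no test was made. Shares carry exact Clopper-Pearson intervals, and a share of 0 has a limit of 3 counts of the total. Sub-clusters used 1000 variable genes, 15 components, 15 neighbours and Leiden resolution 0.5 (leidenalg 0.10.2, scikit-learn 1.9.0, scipy 1.17.1). The procedure was tested on simulated data.

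Named genes were the 12 highest and 12 lowest by the interval bound nearest 1 (5 and 5 against the 3 like tags), the 5 leading genes of each sub-cluster, the 2 highest and 2 lowest of each list, and fixed genes; 1 gene under this rule is not reported here. Predicted, ribosomal, mitochondrial and haemoglobin genes, and genes with over 20% of G4's UMIs (high end) or of the compared tags' UMIs (low end) in 1 cell, were left out of the ranks. Stmn2, Stmn4, Nrn1, Snap25, Myt1, Gabra6 and the H2A genes were added after their values were seen. The members and lists were chosen with earlier results of these data known. Gene positions are from GENCODE vM21. Alternatives tried were the cell and gene filters, the weight of the tags, the cells compared with, the scaling, the thinning and the clustering.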

Additional observations from a re-analysis of the deposited data

How the results depend on the processing

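With 1 library, spread between animals is unknown, and the median gene's 10 UMIs in G4 limits single genes. No paired analysis was possible because each age has 1 library. Of the values that answer a comparison, 74 moved by less than a set tolerance, 11 moved further and 1 reversed. The tolerance was the counting interval, or 1.5 times for counts. For list medians it was the median half-width of the single members' intervals, 0.76 for S phase and 0.55 for early differentiation factors. Shifts with equal tag weights from −0.77 to −0.39 and from 0.34 to 0.11 were thus counted as moving by less. Of the other values, for named genes and smaller lists, 706 moved by less, 62 moved further and 19 reversed.

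Against the 3 like tags the G2 and M phase median was −0.18. With no minimum of UMIs per gene, 4282 genes were at least 1.5-fold lower, the early granule neuron median was 0.015, and the vascular (0.40) and GABA neuron (1.47) medians reversed; the median gene itself shifted by 0.43 there, against 0.04. The share of cells high in both programmes was 3.91% thinned to 1000 UMIs, 6.15% with no filter on cells, 5.70% without the deepest 5% of cells, 5.15% with another random draw and 0% with the 75th percentile as the cut. The H2A ratio, whose alternatives were chosen after seeing the data, was 3.80 over G7, 1.91 over G5, 10.6 over G15 and, reversed, 0.407 over all other tags.

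Log2 ratios of named genes reversed as follows, and the cause was not tested. With no filter on cells Pfkl was at 0.37, and with at least 1000 UMIs per cell Notch1 was at 0.45. Without the deepest 5% of cells Bcl2 was at 0.39, Ttr at −0.55, Kl at 1.13 and Hbb-bt at 0.24. With other tags weighted equally Hist1h2ab was at 0.087, Cspg4 at −0.38 and Cldn5 at −0.10. Against the like tags Hist1h2ac was at 1.94, Hist1h2ai at 1.96, Hist1h2ah at 1.93, Hist1h2ab at 1.91, Hist1h2ag at 1.81, Nrp1 at 0.26, Notch1 at 0.26 and Kl at 0.88.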

Other observations

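Some genes reached a high ratio in G4 through 1 cell. For 23 genes that would otherwise have ranked among the 12 highest, over 20% of the UMIs in G4 lay in a single cell. Icos, a co-stimulatory receptor of T cells, had 143 UMIs in G4, all of them in 1 cell of 545 UMIs, which makes 26.2% of that cell's UMIs. Scarf1, a scavenger receptor, had 55 UMIs, all in 1 cell of 1282 UMIs. Thop1, a peptidase, had 121 of its 127 UMIs in 1 cell of 1999 UMIs, and its ratio of 15.4 came to 0.73 without that cell.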
